A study of Rattus norvegicus with 20 samples.

Results

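The genes described here are complement components of the hepatocyte, followed in the livers of male Sprague-Dawley rats fed sesame lignans. The list held 9 genes: C1s and Mbl2, which start the cascade, Cfb, C3 and C5, which carry and amplify it, C6, C8a and C9, which form the membrane attack complex, and Cfi, which turns it off. A probe set was taken as a member when the array's annotation gave it the symbol of a listed gene. Of the 9 listed genes, 8 had a probe set of their own (9 probe sets, since Mbl2 had 2), and all 8 were among the 11576 genes tested. Cfb was annotated on 4 probe sets, each of which also carried the symbol of its neighbour C2, so those 4 were followed without being assigned to either gene. Of 31099 probe sets on the array, the 13 with a listed symbol exceeded the level used as a filter on 20 of 20 arrays.

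The rats were 4 weeks old on arrival, took a commercial diet for 7 d and were then given experimental diets for 15 d. One diet was lignan-free, and the other 3 held a lignan at 0.2%, which was sesamin, episesamin or sesamolin. Each of the 4 diets was represented by 5 rats, 1 Affymetrix array of liver RNA per rat. The livers were taken from 7 rats per diet less the heaviest and the lightest, so the arrays describe the middle of each group by body weight. All groups were of one sex, strain and age, and only 1 lignan dose and 1 time were used. Sesamin, episesamin and sesamolin are furofuran lignans of sesame that carry methylenedioxyphenyl groups. Episesamin is an epimer of sesamin, formed from it when sesame oil is refined. In sesamolin an oxygen atom joins one of the aromatic groups to the furofuran core. Comparing the 3 lignans with the lignan-free diet and with each other asks which of these compounds changes hepatic gene expression.

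Complement is a set of plasma proteins that mark and lyse foreign or damaged cells, and hepatocytes make most of the circulating components. C1q binds antibody and activates the proteases C1r and C1s (classical pathway), while mannose-binding lectins and ficolins recognise sugars and act through the MASP proteases (lectin pathway). Both routes split C4 and C2, and the alternative pathway uses factor B instead. All 3 routes meet at C3, then C5, and end in a pore of C5b, C6, C7, C8 and C9. Several of these proteins are also acute phase proteins, whose synthesis in the liver changes with inflammatory cytokines and glucocorticoids.

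Promoters of Cfi, C8a and Mbl2, members that changed with a lignan, are shown so that the regulatory sequence can be read beside the values. Each is the 250 bases before the annotated start of the gene in RefSeq's GRCr8 annotation. The table used held promoters of 6 members (C3, C5, C6, C8a, Cfi and Mbl2). It held none for C1s, the member with the largest changes, so the C1s promoter is not shown. Cfi was shown because it changed with more than one lignan, and C8a and Mbl2 were added after their values were seen. Bases are written from 5′ to 3′ in the direction of the gene, and capitals mark matches to the letters TTNNGNAA (a C/EBP-type motif), GTTAAT (an HNF1 half-site) or AGGTCA (a nuclear receptor half-site), searched on both strands. Cfi lies at chr2:221063066-221063315 on the + strand, C8a at chr5:124866632-124866881 on the - strand and Mbl2 at chr1:237430793-237431042 on the + strand.
Cfi: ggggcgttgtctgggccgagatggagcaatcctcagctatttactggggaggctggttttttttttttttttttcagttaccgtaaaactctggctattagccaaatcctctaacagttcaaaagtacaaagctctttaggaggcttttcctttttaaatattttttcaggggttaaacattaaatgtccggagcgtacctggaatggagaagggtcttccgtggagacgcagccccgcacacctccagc
C8a: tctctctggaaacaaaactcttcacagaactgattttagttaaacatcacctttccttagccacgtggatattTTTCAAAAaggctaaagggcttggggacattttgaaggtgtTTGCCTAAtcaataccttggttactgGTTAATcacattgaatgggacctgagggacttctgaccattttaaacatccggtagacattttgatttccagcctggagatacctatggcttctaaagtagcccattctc
Mbl2: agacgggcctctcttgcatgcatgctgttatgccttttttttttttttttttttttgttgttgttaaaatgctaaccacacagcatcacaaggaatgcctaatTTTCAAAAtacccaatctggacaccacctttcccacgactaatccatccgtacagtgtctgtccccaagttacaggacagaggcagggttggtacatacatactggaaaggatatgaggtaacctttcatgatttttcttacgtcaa

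The Cfi window held no match. The C8a window held 2 matches to TTNNGNAA, at 177 to 170 and 136 to 129 bases before the start, and 1 to GTTAAT, at 110 to 105 bases before it. The Mbl2 window held 1 match to TTNNGNAA, at 147 to 140 bases before the start. Over the 6 members, 5 windows held TTNNGNAA, against 37.2% of 33469 promoters of the same length. GTTAAT was found in 2 of the 6 windows (C5 and C8a) and in 6.5% of all promoters, and AGGTCA in 2 of the 6 (C3 and C6) and in 14.1%. No match overlapped a match to another motif. A match describes letters in a window and says nothing about binding.

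Of 10 hepatocyte markers, 9 passed the filter in these livers, among them albumin (Alb) and transthyretin (Ttr), and the other had only a probe set shared with another gene. Values given below are quantile-normalized intensities, a linear scale without a physical unit on which each probe set can be followed across rats but not set against another probe set. Raw array means ran from 159 to 271, and 6 arrays had a mean below 200: lignan-free replicate 3, sesamin replicate 2, episesamin replicates 3 and 4 and sesamolin replicates 2 and 5. Log2 changes came from limma over all tested genes with Benjamini-Hochberg adjustment, and a gene was called at an adjusted p below 0.05. Nothing in the labels names a batch.

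C1s, the protease of the C1 complex that cleaves C4 and C2, showed the largest changes of the 8 genes. In rats on the lignan-free diet its normalized intensity was 4408, 4128, 3542, 4308 and 3981, in the order of replicates 1 to 5. On sesamin it was 2989.8, 4149.7, 3194, 5045 and 3665.5. On episesamin it was 1721, 2018, 1818, 1996 and 2066.5, and on sesamolin 1599.6, 2363, 2559.6, 2686 and 1706. Every rat on episesamin or sesamolin lay below every rat on the lignan-free diet and below every rat on sesamin, whereas the sesamin and lignan-free values overlapped. The means were 4073 ± 339 on the lignan-free diet, 3809 ± 824 on sesamin, 1924 ± 147 on episesamin and 2183 ± 499 on sesamolin (SD, n = 5).

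C1s fell by 1.08 ± 0.15 on the log2 scale (± SE) with episesamin, a level 52.7% lower than on the lignan-free diet (limma, adjusted p = 0.000177). With sesamolin it fell by 0.93 ± 0.15, a level 47.4% lower (limma, adjusted p = 0.000931). With sesamin the log2 change was -0.12 ± 0.15 (limma, adjusted p = 0.929), with a 95% interval from -0.44 to 0.20. Both calls against the lignan-free diet were kept in all 16 other settings and with each of the 20 arrays left out, with adjusted p up to 0.00844 for episesamin and 0.0233 for sesamolin. In this bulk tissue, fewer cells of a type and less RNA per cell cannot be told apart.

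Mbl2, a mannose-binding lectin secreted by hepatocytes, fell with episesamin. The brighter of its 2 probe sets read 4757, 3833, 5111, 4235 and 4157 on the lignan-free diet and 4419.6, 3548, 4103, 4349.9 and 3780.5 on sesamin. It read 3665.5, 3423, 3548, 3257 and 3266 on episesamin and 3314.5, 3536, 4018, 3833 and 3973 on sesamolin. The highest rat on episesamin was below the lowest rat on the lignan-free diet, while 2 of the 5 rats on sesamolin were below it. The log2 change was -0.36 ± 0.09 with episesamin (22.0% lower, adjusted p = 0.0281), -0.24 ± 0.09 with sesamolin (adjusted p = 0.139) and -0.13 ± 0.09 with sesamin (adjusted p = 0.835).

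The second Mbl2 probe set ranged from 1369.7 to 1880.1 on the lignan-free diet, from 1139 to 1490 on episesamin and from 1137 to 1366 on sesamolin. With every probe set tested on its own (16263 probe sets, of which 1.41% were called lower with episesamin and 2.28% with sesamolin), its log2 change was -0.32 ± 0.10 with episesamin (adjusted p = 0.0956) and -0.28 ± 0.10 with sesamolin (adjusted p = 0.149). In that fit the brighter probe set kept its call with episesamin (adjusted p = 0.0373). So both probe sets had lower means with episesamin and 1 of them passed the test. The Mbl2 call ended in 5 of the 16 other settings (adjusted p up to 0.185) and when lignan-free replicate 1 or 3 or episesamin replicate 4 or 5 was left out (adjusted p from 0.0598 to 0.0683).

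The 4 probe sets annotated to both Cfb, the protease of the alternative pathway convertase, and C2, its counterpart in the classical pathway, gave no call with any lignan in the fit of every probe set. With sesamolin their log2 changes ran from -0.30 to -0.26 (adjusted p from 0.0862 to 0.469). With episesamin they ran from -0.33 to 0.06 (adjusted p from 0.196 to 0.901), and with sesamin from -0.26 to -0.10 (adjusted p from 0.74 to 0.954). The brightest of the 4 had means of 5757 ± 547 on the lignan-free diet, 5277 ± 417 on sesamin, 5188 ± 244 on episesamin and 4809 ± 286 on sesamolin (SD, n = 5). Its highest value on sesamolin, 5136, was below its lowest on the lignan-free diet, 5195 (adjusted p = 0.0862). The 4 do not give separate values for Cfb.

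C3, the component on which all pathways converge, gave no call with any lignan. Its normalized intensity ranged from 13730 to 16033 on the lignan-free diet, from 13877 to 15216 on sesamin, from 12988 to 15552 on episesamin and from 12988 to 14683 on sesamolin, so the 4 groups overlapped. The log2 changes were -0.03 ± 0.07 with sesamin, -0.05 ± 0.07 with episesamin and -0.07 ± 0.07 with sesamolin (adjusted p of 0.959, 0.732 and 0.628). The 95% intervals of the 3 changes lay between -0.21 and 0.11. C3 was the probe set of rank 7 by mean intensity on the array, and quantile normalization fixes the value that each rank takes.

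C5, which is cleaved to the chemoattractant C5a and to C5b, ranged from 1219.5 to 1473 on the lignan-free diet and from 971 to 2002 on sesamin. It ranged from 992 to 1369.7 on episesamin and from 923 to 1248 on sesamolin. Replicate 1 was the lowest rat in each of the 3 lignan groups. Among the genes with a probe set of their own, the same held for C1s and C3. On the lignan-free diet replicate 1 was the highest rat for C1s and the lowest for C3. The cause was not tested. The log2 changes were 0.08 ± 0.16 with sesamin, -0.10 ± 0.16 with episesamin and -0.23 ± 0.16 with sesamolin, and none passed the test (adjusted p from 0.437 to 0.955).

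Of the terminal components, C8a fell with sesamolin, and C6 and C9 gave no call. C8a encodes the alpha chain of C8, a part of the membrane attack complex. It read 3392, 3610.5, 3805, 3753 and 3702.5 on the lignan-free diet and 3342.5, 3470.2, 3794, 4367.5 and 3713 on sesamin. It read 2995, 3404, 3006, 2906 and 3113 on episesamin and 2741.5, 3156, 2947, 3069 and 3151 on sesamolin. All 5 rats on sesamolin and 4 of the 5 on episesamin were below the lowest rat on the lignan-free diet. The log2 change was -0.28 ± 0.08 with sesamolin (17.5% lower, adjusted p = 0.0437), -0.24 ± 0.08 with episesamin (adjusted p = 0.0837) and 0.03 ± 0.08 with sesamin (adjusted p = 0.97).

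The C8a call with sesamolin stood close to the threshold. It ended in 8 of the 16 other settings (adjusted p up to 0.203) and with 12 of the 20 arrays left out: lignan-free replicates 2, 3, 4 and 5, sesamin replicates 3 and 5, episesamin replicate 5 and each of the 5 sesamolin replicates (adjusted p from 0.0518 to 0.103). With trended and robust variance estimation, the episesamin change of C8a was called as well (adjusted p = 0.0302).

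C9, which polymerises to form the pore, ranged from 7713 to 9369.6 on the lignan-free diet, from 7689 to 10370 on sesamin, from 7369 to 7947 on episesamin and from 7269.6 to 8291 on sesamolin. Its log2 changes were 0.03 ± 0.08, -0.13 ± 0.08 and -0.14 ± 0.08 in that order of lignans (adjusted p of 0.965, 0.382 and 0.371). C6, which binds C5b to start the assembly, ranged from 1098 to 2069 on the lignan-free diet, from 1210.5 to 1976 on sesamin, from 1195 to 1741 on episesamin and from 1123 to 1926 on sesamolin. Its log2 changes were -0.04 ± 0.18, -0.11 ± 0.18 and -0.12 ± 0.18 (adjusted p of 0.983, 0.797 and 0.756). C6 had the widest spread within a diet of the 8 genes (SD of 0.30 on the log2 scale), and its 95% intervals against the lignan-free diet reached from -0.51 to 0.35.

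Cfi, the protease that cleaves C3b and C4b in the presence of a cofactor, fell with both episesamin and sesamolin. On the lignan-free diet it read 8626, 8661, 8383, 7002 and 7779, and on sesamin 7122, 8027, 7845, 8383 and 7658.5. On episesamin it read 6218, 6853.5, 6203, 6290.2 and 6733, and on sesamolin 5436, 6541.5, 6044.5, 6606 and 6421. Every rat on episesamin or sesamolin was below every rat on the other 2 diets. Cfi was 20.0% lower with episesamin (log2 change -0.32 ± 0.08, adjusted p = 0.0258) and 23.2% lower with sesamolin (-0.38 ± 0.08, adjusted p = 0.00798), and its change with sesamin was -0.05 ± 0.08 (adjusted p = 0.943).

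The episesamin call of Cfi ended in 4 of the 16 other settings (adjusted p up to 0.225) and without lignan-free replicate 1 or 2 or episesamin replicate 1, 3 or 4 (adjusted p from 0.0524 to 0.0659). Its sesamolin call ended in 4 settings (adjusted p up to 0.123) and with none of the arrays left out singly.

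**Figure D1:**
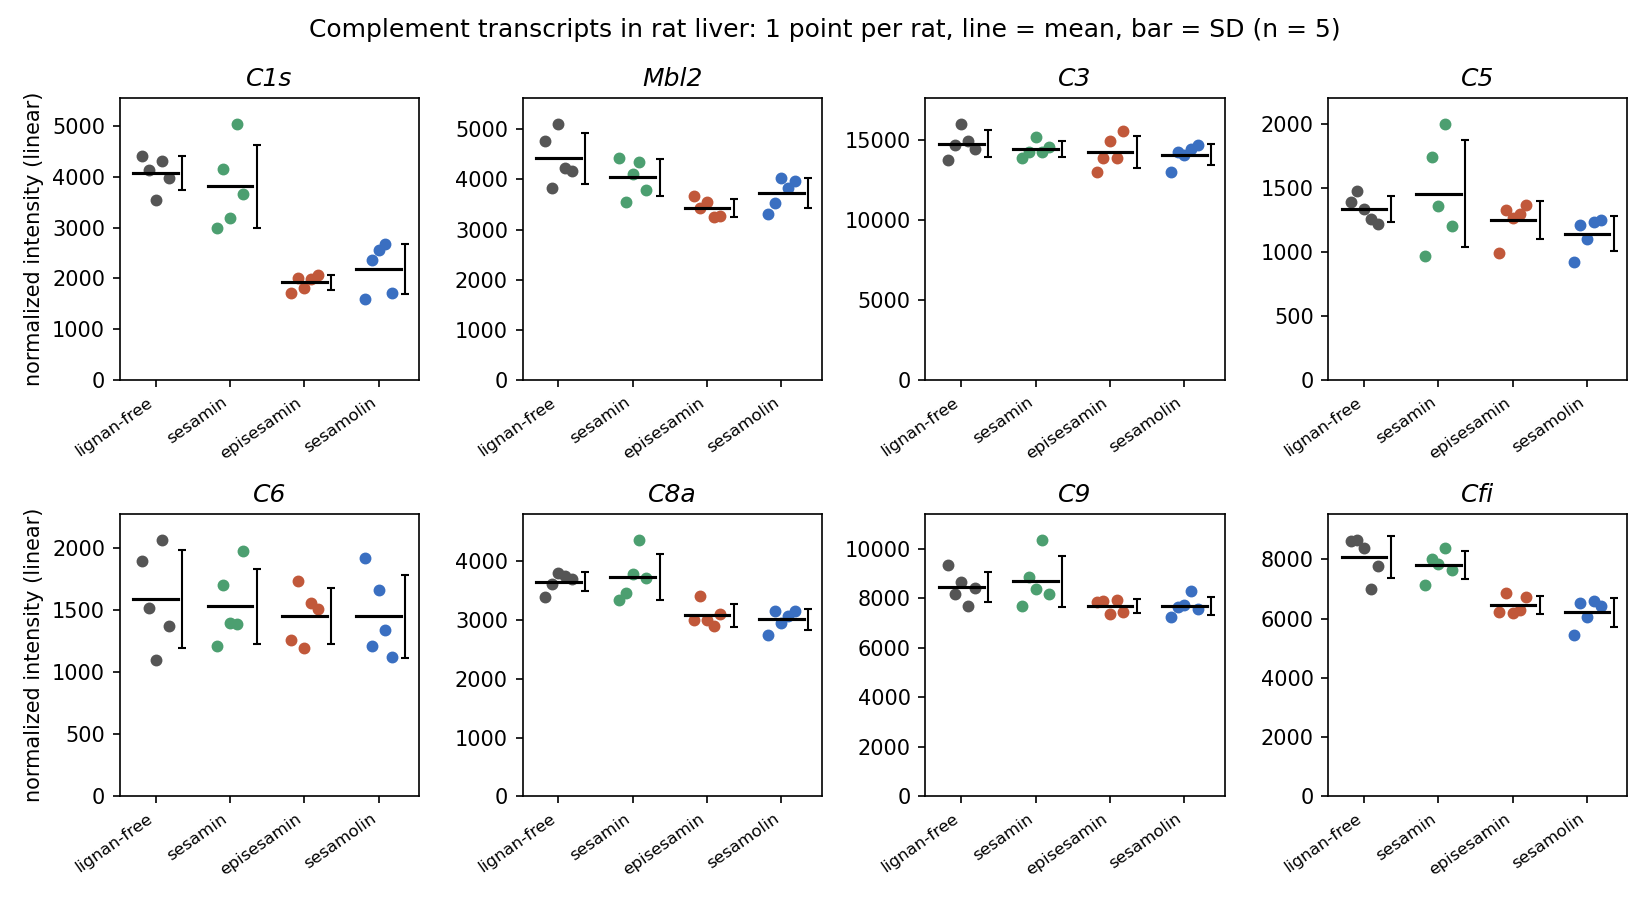
Quantile-normalized intensity (linear, from 0) of the 8 complement genes with a probe set of their own, by diet, with 1 point per rat, the mean as a line and the SD as a bar (n = 5). In C1s the points of episesamin (1721 to 2066.5) and sesamolin (1599.6 to 2686) lie below all points of the lignan-free and sesamin diets, while the 4 diets overlap in C3, C5, C6 and C9.

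Counted over the 8 genes, 3 fell with episesamin (C1s, Cfi and Mbl2) and 3 with sesamolin (C1s, Cfi and C8a), and none was called higher. Among all tested genes 5.12% were called with episesamin (2.21% lower) and 6.24% with sesamolin (2.95% lower). Sesamin called none of the 8, against 0.432% of all genes called. No member reached an unadjusted p below 0.05 in limma with sesamin, and 863 of the 11576 genes did. Groups did not overlap, with the lignan lower, for 3 of the 8 genes with episesamin (background 3.04%) and for 3 with sesamolin (background 3.22%). These were the called genes in each case.

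The median log2 change of the 8 was -0.04 with sesamin, -0.19 with episesamin and -0.23 with sesamolin, beside medians of -0.01, -0.02 and -0.01 over all tested genes. The change was below 0 in 5, 8 and 8 of the 8 genes respectively, beside 52%, 52.7% and 51.4% of all genes. The 3 comparisons share the 5 lignan-free arrays. Scaling by the array median moved the median of all genes to -0.13 with episesamin and -0.10 with sesamolin, and without normalization it was -0.25 and -0.22. Relative to those shifts the median of the 8 genes was -0.15 and -0.18 with median scaling and -0.15 and -0.19 without normalization. The number of the 8 below the median of all genes was 5, 8 and 8 with sesamin, episesamin and sesamolin after quantile normalization, 4, 6 and 6 with median scaling and 4, 7 and 6 without normalization. Under median scaling the share of lower genes among all calls was 73.4% with episesamin and 72% with sesamolin, against 43.2% and 47.4% with quantile normalization, and without normalization it was 72.1% and 74.2%.

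**Figure D2:**
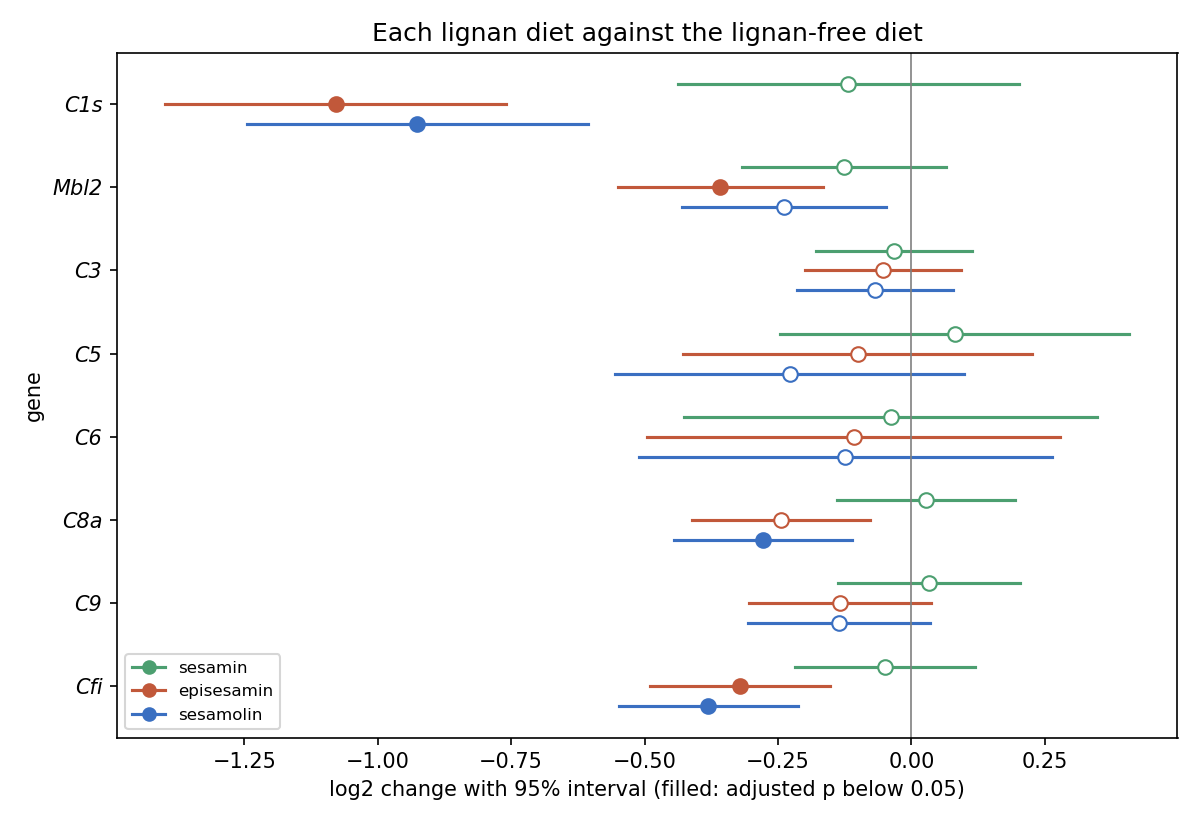
Log2 change of each of the 8 complement genes against the lignan-free diet for the 3 lignans, with the 95% interval from limma as a line and filled points where the adjusted p was below 0.05. The episesamin and sesamolin points of C1s stand at -1.08 and -0.93, apart from all others, which lie between -0.38 and 0.08.

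An F test over the 4 diets called 3 of the 8 genes, against 4.89% of all genes: C1s (adjusted p = 0.000119), Cfi (adjusted p = 0.00942) and C8a (adjusted p = 0.0326). Mbl2 had an adjusted p of 0.0858, and C9, C5, C3 and C6 had 0.383, 0.564, 0.896 and 0.949. The precision behind these tests differed between genes. The SD within a diet was between 0.08 and 0.13 on the log2 scale for C3, C8a, Cfi, C9 and Mbl2, which lies at or below percentile 8.84 of all tested genes. It was 0.24 for C1s, 0.25 for C5 and 0.30 for C6, between percentiles 45 and 59.9. The SE of a log2 change was 0.08 for Cfi, 0.16 for C5 and 0.18 for C6.

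The lignans were also compared with each other at the same dose and time. Against sesamin, its epimer episesamin lowered C1s by a log2 difference of -0.96 ± 0.15 (48.6% lower, adjusted p = 0.00203), the sole call among the 8 genes, against 1.23% of all genes called and 0.406% called lower. Cfi was lower in each of the 5 rats on episesamin than in any rat on sesamin, with a difference of -0.27 ± 0.08 that was not called (adjusted p = 0.116; 95% interval from -0.44 to -0.10). C8a differed by -0.27 ± 0.08 (adjusted p = 0.113) and Mbl2 by -0.23 ± 0.09 (adjusted p = 0.277).

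Between sesamolin and sesamin 2 of the 8 genes were called, both lower with sesamolin, against 1.81% of all genes called and 0.812% called lower. These were C1s (-0.81 ± 0.15, 42.9% lower, adjusted p = 0.00981) and Cfi (-0.33 ± 0.08, 20.5% lower, adjusted p = 0.039). C8a did not overlap between these diets and differed by -0.31 ± 0.08 (adjusted p = 0.0558), and it was called without sesamin replicate 1 (adjusted p = 0.0384). The Cfi call ended in 7 of the 16 other settings (adjusted p up to 0.513) and with 9 arrays left out singly: lignan-free replicate 5, sesamin replicates 2, 3, 4 and 5, episesamin replicate 4 and sesamolin replicates 1, 3 and 5 (adjusted p from 0.0506 to 0.105). The C1s calls ended without normalization (adjusted p of 0.0756 for episesamin and 0.135 for sesamolin against sesamin) and without the 6 dimmer arrays (0.0526 and 0.121). The sesamolin call also ended when only those diets were fitted (0.109).

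Sesamolin and episesamin were not separated by any of the 8 genes, nor by any of the 11576 tested (limma called 0%, with 662 genes at an unadjusted p below 0.05, none of them a member). The log2 differences of the 8 lay between -0.13 and 0.15, and their 95% intervals between -0.45 and 0.47. For C1s the difference was 0.15 (95% interval from -0.17 to 0.47) and for Cfi it was -0.06 (95% interval from -0.23 to 0.11). These intervals do not show that the 2 lignans act alike.

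**Figure D3:**
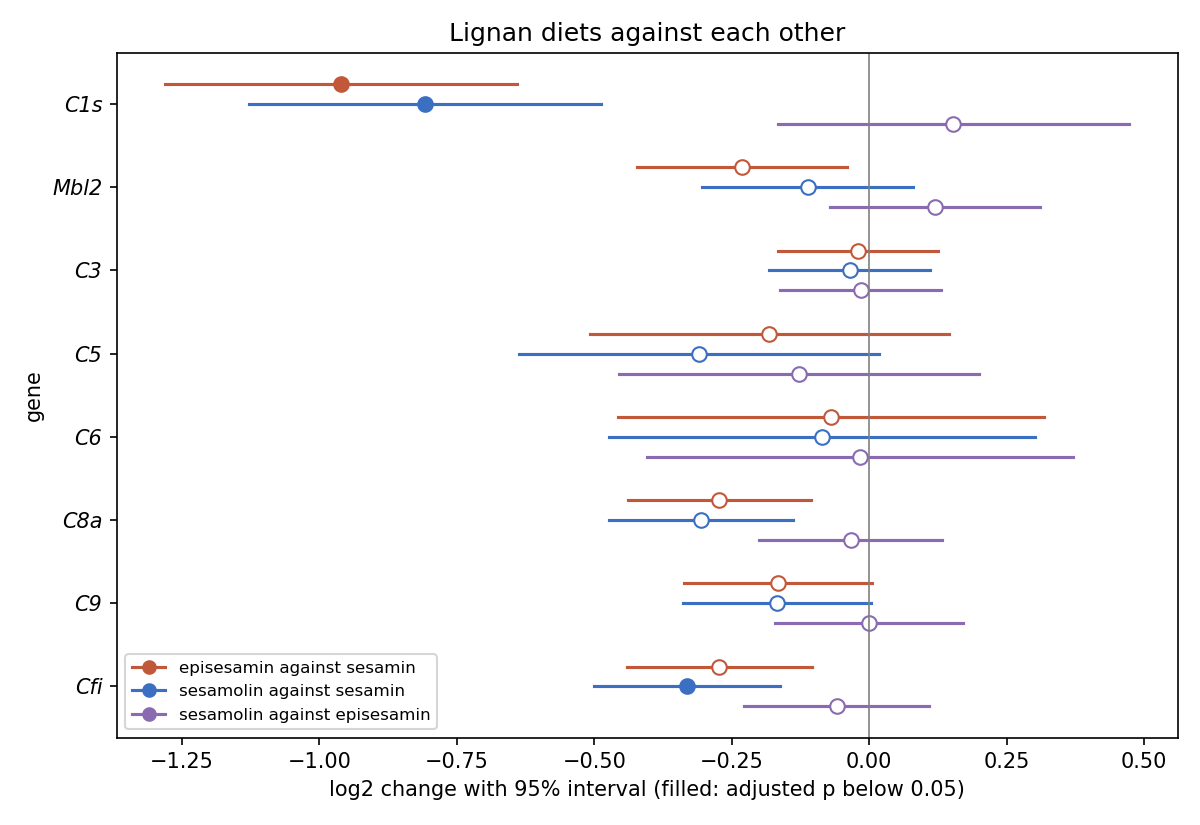
Log2 difference between lignan diets for each of the 8 complement genes, with the 95% interval as a line and filled points where the adjusted p was below 0.05. C1s is lower with episesamin and with sesamolin than with sesamin, Cfi is lower with sesamolin than with sesamin, and no interval for sesamolin against episesamin excludes 0.

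The rest of the complement system was followed in 5 lists with 40 genes. Of these, 26 were tested, 4 had only probe sets shared with another gene (C2, C4a, C4b and C7), 7 were not named in the annotation used and 3 stayed below the filter. None of the 26 was called with sesamin. With episesamin 6 were called lower and 1 higher, and with sesamolin 10 lower and 1 higher. Over all tested genes 2.21% were called lower with episesamin and 2.95% with sesamolin, and 5.12% and 6.24% in either direction. The median log2 change of the 26 was -0.03, -0.24 and -0.28 with sesamin, episesamin and sesamolin. When single arrays were left out, the number called ranged from 2 (without lignan-free replicate 1) to 8 with episesamin, and from 7 (without lignan-free replicate 1, or sesamolin replicate 1 or 3) to 11 with sesamolin.

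Of the 10 initiating genes tested, the longest of the 5 lists, 4 fell with episesamin and 6 with sesamolin. All 3 chains of C1q, the recognition unit of the classical pathway, fell with sesamolin: C1qa by 0.87 ± 0.13 (adjusted p = 0.000364), C1qc by 0.80 ± 0.14 (adjusted p = 0.00119) and C1qb by 0.59 ± 0.14 (adjusted p = 0.0143) on the log2 scale. C1qa averaged 1426 ± 148 on the lignan-free diet, 1212 ± 186 on sesamin, 939 ± 83.5 on episesamin and 784 ± 156 on sesamolin (SD, n = 5). With episesamin C1qa fell by 0.60 ± 0.13 (adjusted p = 0.0116) and C1qc by 0.49 ± 0.14 (adjusted p = 0.0423).

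C1r, the protease that activates C1s and the gene beside C1s in the RefSeq annotation, fell by 0.92 ± 0.21 on the log2 scale with episesamin (adjusted p = 0.0138). Its mean was 3310 ± 637 on the lignan-free diet, 3541 ± 925 on sesamin, 1759 ± 429 on episesamin and 2329 ± 331 on sesamolin (SD, n = 5). The sesamolin change was -0.50 ± 0.21 (adjusted p = 0.181). Against sesamin the C1r level with episesamin was also lower (-0.99 ± 0.21, adjusted p = 0.0225). C1r and C1s thus had their lowest mean on the same diet.

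In the lectin pathway Fcna, a ficolin, fell by 0.67 ± 0.16 with episesamin (adjusted p = 0.0219) and by 1.03 ± 0.16 with sesamolin (adjusted p = 0.000648) on the log2 scale. The other mannose-binding lectin, Mbl1, fell with sesamolin (-0.39 ± 0.11, adjusted p = 0.0478), as did the collectin Colec11 (-0.36 ± 0.07, adjusted p = 0.00536). The proteases Masp1 and Masp2 were not called, with changes of -0.19 and 0.03 with episesamin and -0.19 and 0.01 with sesamolin. The calls of C1qa, C1qc and Fcna with sesamolin were kept in all other settings and with each array left out. The Mbl1 call ended in 11 of the 16 settings and with 15 arrays left out singly (adjusted p up to 0.322).

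The other 2 chains of C8 were followed beside C8a. C8b, the gene next to C8a, fell with episesamin (-0.26 ± 0.07, adjusted p = 0.0427) and with sesamolin (-0.26 ± 0.07, adjusted p = 0.0429), from a mean of 5612 ± 463 on the lignan-free diet to 4669 ± 219 and 4690 ± 194 (SD, n = 5). Both calls ended in 9 of the 16 settings, with adjusted p up to 0.243 and 0.203, among them the fit with the replicate number as a block (0.0511 and 0.0504). C8g changed by -0.10 ± 0.07 and -0.08 ± 0.07 and was not called (adjusted p of 0.429 and 0.547). Cfp, properdin, which stabilises the alternative convertase, fell by 1.08 ± 0.28 with episesamin (adjusted p = 0.0314), a call that ended in 4 settings and with 6 arrays left out singly (adjusted p up to 0.138). With the probe sets of Cfp averaged, the episesamin change was -0.46 (adjusted p = 0.138). Cfp was also lower, without a call, with sesamin (-0.80, adjusted p = 0.456) and with sesamolin (-0.86, adjusted p = 0.0797).

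Among 6 regulators in plasma, 3 fell with sesamolin and none was called with episesamin, both against the lignan-free diet. C4bpb, the beta chain of the C4b-binding protein that serves Cfi as a cofactor, had means of 3764 ± 118 on the lignan-free diet, 4126 ± 745 on sesamin, 2899 ± 212 on episesamin and 2385 ± 300 on sesamolin (SD, n = 5). It fell by 0.67 ± 0.11 on the log2 scale with sesamolin (adjusted p = 0.00128), a call kept in all other settings, and was lower with sesamolin than with sesamin (-0.78 ± 0.11, adjusted p = 0.00098). With episesamin C4bpb changed by -0.38 (adjusted p = 0.0603), which was called in 4 of the 16 other settings and without sesamin replicate 5. It was also called lower with episesamin than with sesamin. C4bpa (-0.31 ± 0.08, adjusted p = 0.0247) and Cpn1, the catalytic subunit of the carboxypeptidase that inactivates C3a and C5a (-0.30 ± 0.07, adjusted p = 0.0177), fell with sesamolin as well. Clusterin (Clu) and vitronectin (Vtn), which block pore assembly, were not called: Clu changed by 0.30 ± 0.09 with episesamin and 0.28 ± 0.09 with sesamolin (adjusted p of 0.0658 and 0.0766) and Vtn by -0.04 ± 0.06 and -0.03 ± 0.06.

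Of the 3 membrane regulators tested, Cd46, a cofactor for Cfi on cell membranes, rose with episesamin (0.67 ± 0.16, adjusted p = 0.0202) and with sesamolin (0.58 ± 0.16, adjusted p = 0.0362), from a mean of 41.9 ± 10.4 to 69 ± 6.3 and 65.3 ± 12.6 (SD, n = 5). These were low levels, since the lignan-free mean lay below 45.1, the 60th percentile of all normalized values. Both calls ended without normalization (adjusted p of 0.234 and 0.321) and with median scaling (0.0545 and 0.0932), and the sesamolin call also ended with the replicate number as a block (0.0516). None of the 3 complement receptors tested was called. Of the 7 calls with episesamin, none was kept under every alternative tried, and of the 11 with sesamolin 4 were (C1qa, C1qc, Fcna and C4bpb). Of the 7 with episesamin, C1qa and C1r lost their call with no single array left out, and the other 5 did with at least 1.

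**Figure D4:**
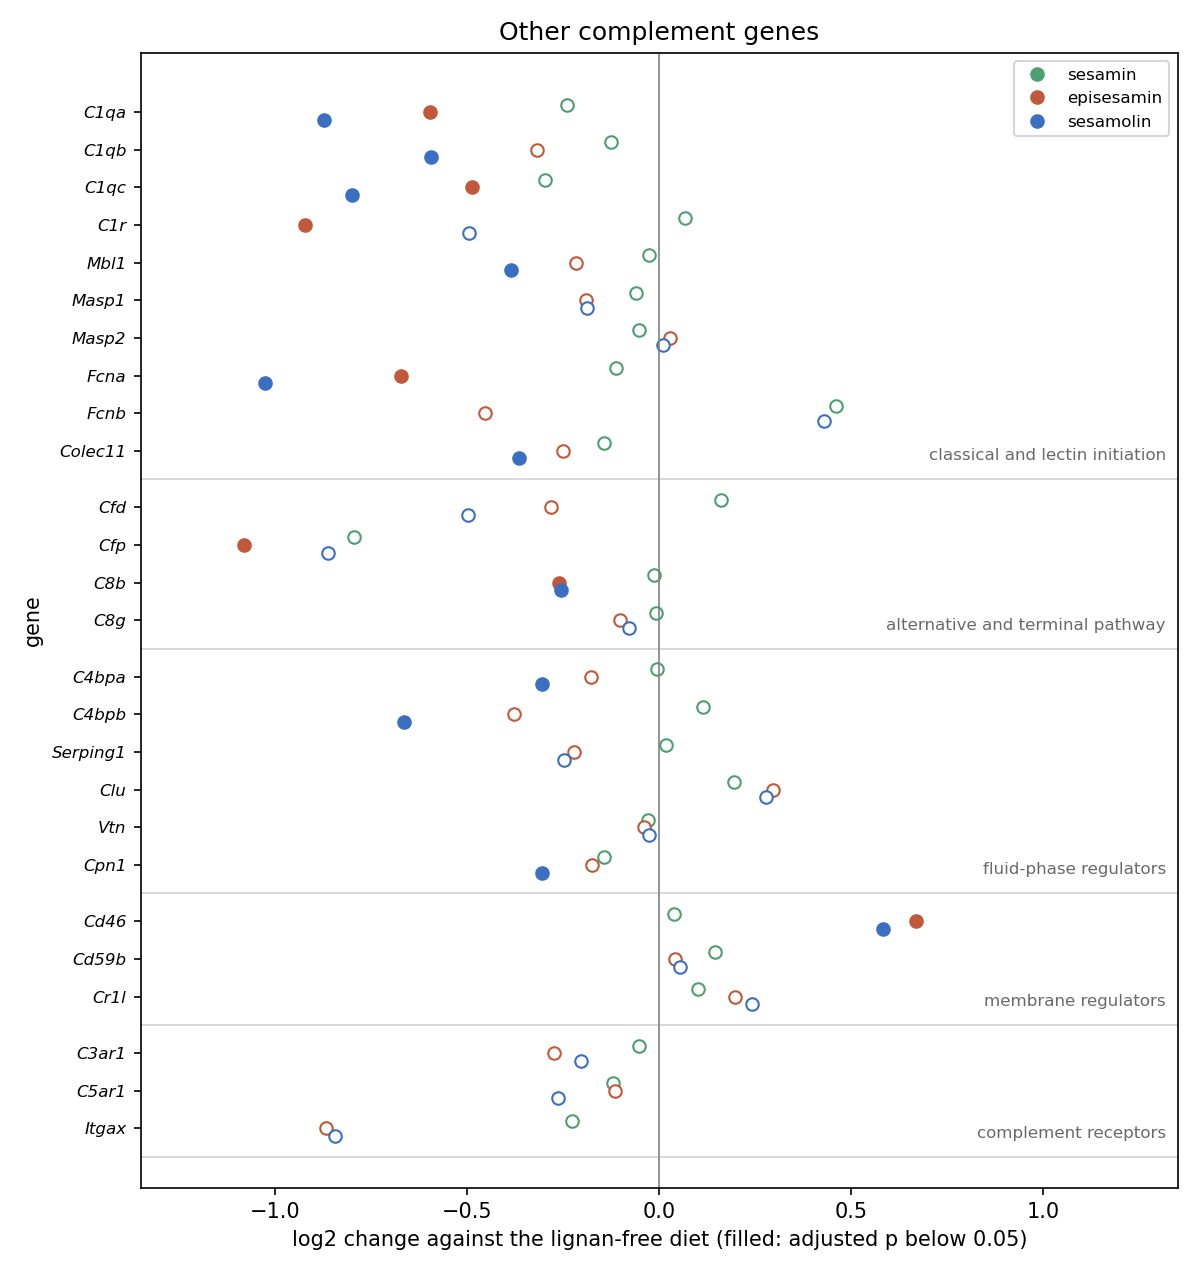
Log2 change of the 26 other complement genes against the lignan-free diet for the 3 lignans, grouped by role, with filled points where the adjusted p was below 0.05. Most filled points lie left of 0 among the initiating genes and the plasma regulators, and Cd46 is the gene filled on the right.

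C1q chains and Fcna are known as products of macrophages, in the liver Kupffer cells, rather than of hepatocytes, and markers of other liver cells were therefore followed in the same arrays. Of 6 Kupffer cell markers tested, 0 were called with sesamin and 1 was lower with episesamin (Cd5l, -0.64 ± 0.17, adjusted p = 0.0401), beside 2.21% of all genes. With sesamolin 4 were lower (Clec4f, Cd5l, Csf1r and Adgre1), beside 2.95% of all genes, and of these the Cd5l call was kept under every alternative. The Cd5l call with episesamin ended in 7 of the 16 settings and with 7 arrays left out singly (adjusted p up to 0.106). All 6 Kupffer cell markers had a change below 0 with each lignan, beside 52%, 52.7% and 51.4% of all genes. Their median log2 changes were -0.29, -0.39 and -0.70 with sesamin, episesamin and sesamolin. Their summed level ran from 3472 to 4377 on the lignan-free diet, from 2520 to 4010 on sesamin, from 2608 to 3328 on episesamin and from 1889 to 2809 on sesamolin. The summed level of the 3 C1q chains ran from 2584 to 3229, from 1995 to 2925, from 1926 to 2279 and from 1315 to 2127 in the same order. The part of Kupffer cells in the changes of C1q and Fcna was not tested.

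Of 9 hepatocyte markers, 0, 1 (Apoa2) and 0 were called with sesamin, episesamin and sesamolin, beside 0.432%, 5.12% and 6.24% of all genes. The summed level of the 9 markers ran from 93810 to 99610 on the lignan-free diet, from 92090 to 97160 on sesamin, from 85520 to 92450 on episesamin and from 90740 to 99250 on sesamolin. This sum, in which bright genes weigh most, was below the lignan-free range in all 5 rats on episesamin and overlapped it on sesamolin. By the mean log2 change of the markers, episesamin replicates 1 (-0.0035) and 5 (-0.0755) lay within the lignan-free range (-0.0931 to 0.1419). Of 5 endothelial markers, 2 were lower with episesamin and 2 with sesamolin (Lyve1 and Kdr in both), beside 2.21% and 2.95% of all genes. When the probe sets of Kdr were averaged, its episesamin change turned to 0.11 and its sesamolin call ended as well (adjusted p = 0.964). The summed endothelial markers ran from 2534 to 2967 on the lignan-free diet, from 2384 to 2645 on sesamin, from 2017 to 2327 on episesamin and from 1963 to 2440 on sesamolin. None of 7 stellate cell, 5 leukocyte or 3 bile duct markers was called with any lignan. The summed stellate cell markers ran from 3510 to 5557 on the lignan-free diet, from 3096 to 3665 on sesamin, from 3057 to 3681 on episesamin and from 2532 to 3589 on sesamolin. The summed leukocyte markers ran from 167.1 to 304.9, from 155.3 to 418.4, from 111.3 to 218 and from 142.1 to 266.3 in the same order, with a median log2 change of -0.61 with episesamin. The summed bile duct markers ran from 190.5 to 253.9, from 170.1 to 246.3, from 176.8 to 284.5 and from 271 to 325.7, so the sums of all 5 rats on sesamolin were above the lignan-free range. By the mean log2 change of these markers the 2 diets overlapped, with sesamolin replicate 4 (0.0713) below lignan-free replicate 3 (0.2433). The part of these cell types in the changes of C1s, Cfi, C8a and Mbl2 was not tested.

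**Figure D5:**
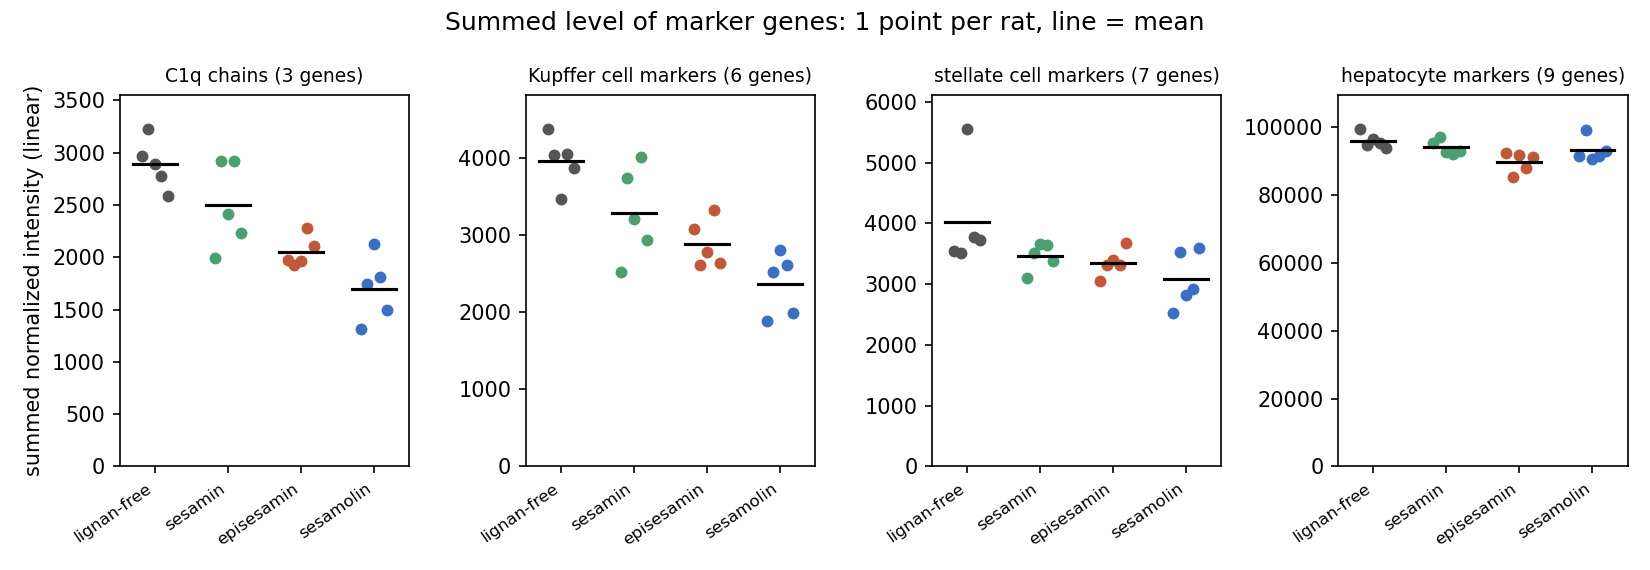
Summed quantile-normalized intensity (linear, from 0) of the 3 C1q chains and of Kupffer cell, stellate cell and hepatocyte markers by diet, with 1 point per rat and the mean as a line. The sesamolin rats lie below all lignan-free rats for the C1q chains (1315 to 2127 against 2584 to 3229) and the Kupffer cell markers (1889 to 2809 against 3472 to 4377). The episesamin rats also lie below all lignan-free rats for both (1926 to 2279 and 2608 to 3328).

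Of 14 other acute phase proteins of the liver, none was called with sesamin, 2 were lower with episesamin, and 4 were lower and 1 higher with sesamolin, with median log2 changes of 0.00, -0.10 and -0.10. The shares of all tested genes called with these lignans were 0.432%, 5.12% and 6.24%. Ceruloplasmin (Cp), the copper carrier of plasma, fell with episesamin (-0.40 ± 0.08, adjusted p = 0.00831) and with sesamolin (-0.36 ± 0.08, adjusted p = 0.0143), calls that ended in 3 and 4 of the 16 settings (adjusted p up to 0.101 and 0.165). Serum amyloid P (Apcs) fell with episesamin (-0.41 ± 0.10, adjusted p = 0.0243) and with sesamolin (-0.42 ± 0.10, adjusted p = 0.0193), calls that ended without normalization and without the 6 dimmer arrays (adjusted p up to 0.202 and 0.132). The Apcs calls also ended with 5 and 1 arrays left out singly, all of them lignan-free or episesamin arrays. The others called with sesamolin, named after their values were seen, were A2m (-1.10) and Itih4 (-0.29), both lower, and Orm1 (0.56), higher. These calls ended in 2, 7 and 6 of the 16 settings and with 3, 7 and 8 arrays left out singly (adjusted p up to 0.0807, 0.219 and 0.292). Without a call, the same genes changed by -0.90, -0.21 and 0.42 with episesamin (adjusted p of 0.0561, 0.13 and 0.141). With sesamin they changed by -0.31, -0.08 and 0.54 (adjusted p of 0.873, 0.888 and 0.271). The A2m change with episesamin was called in 6 of the 16 settings.

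Of 15 receptors and transcription factors that act on such genes in hepatocytes, none was called with sesamin, 1 was lower and 1 higher with episesamin, and 2 were lower with sesamolin. Of all tested genes 5.12% were called with episesamin and 6.24% with sesamolin. The glucocorticoid receptor gene Nr3c1 fell with episesamin (-0.66 ± 0.13, adjusted p = 0.00506) and with sesamolin (-0.52 ± 0.13, adjusted p = 0.0233). The interleukin 1 receptor gene Il1r1 fell with sesamolin (-0.64 ± 0.16, adjusted p = 0.0212). The gene called higher with episesamin, named after its values were seen, was Nr1i3, the xenobiotic receptor CAR (1.19 ± 0.31, adjusted p = 0.0322). Nr1i3 was also higher, without a call, with sesamin (0.98, adjusted p = 0.359) and with sesamolin (1.01, adjusted p = 0.0605). Both of these changes were called once the 6 dimmer arrays were left out (adjusted p of 0.0263 and 0.0386). Without the 6 dimmer arrays the Nr3c1 and Il1r1 calls ended (adjusted p from 0.0712 to 0.0844). The Nr3c1 call with sesamolin ended in 5 settings in all and with 4 arrays left out singly (adjusted p up to 0.0868). The Il1r1 call ended in 3 settings and without lignan-free replicate 4 (adjusted p up to 0.176). The Nr1i3 call with episesamin ended in 5 settings and with 7 arrays left out singly (adjusted p up to 0.113).

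The genes most like each member over the 20 arrays were found by Pearson's correlation of log2 values, as a description in which diet, array brightness and cell makeup are shared by all points. For C1s these were Cp (r = 0.95), Mfsd4b2l1 (r = 0.90) and C1qa (r = 0.89). With diet means removed the values were 0.77 for Cp, 0.32 for Mfsd4b2l1 and 0.85 for C1qa. For Cfi they were Fcna (r = 0.91), Cp (r = 0.90) and Smco4 (r = 0.89), and for C8a Slc25a15 (r = 0.89), Cp (r = 0.88) and Dhtkd1 (r = 0.88). Cp was thus among the 3 nearest genes of C1s, Cfi and C8a, the 3 members called by the F test. With diet means removed its correlation was 0.63 with Cfi and 0.64 with C8a.

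For Mbl2 the nearest genes were Rnf13 (r = 0.84), Ctsl (r = 0.81) and Rnf149 (r = 0.80). Proc, which encodes the plasma protease protein C, was nearest to C3 (r = 0.85), followed by Gcgr and Ncstn (r = 0.82 each). For C5 they were Prxl2b (r = 0.84), Mat1a (r = 0.82) and Lrp1 (r = 0.80), and for C9 Gas6 (r = 0.83), Rgs18 (r = 0.81) and Tfec (r = 0.80). C6 had no gene above r = 0.72, with Pabir1 at that value and Smtnl2 and Cttnbp2 at 0.69.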

How the data were processed

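The deposited table holds 1 linear intensity per probe set and array, computed by the authors with software not given in the sources used here. Array means differed. Values were therefore put on a common scale by quantile normalization of the 20 arrays and transformed as log2 of the value plus 5.85, the 20th percentile. Probe sets with 1 gene symbol above 17.8 (the 40th percentile) on at least 5 arrays were kept, and each gene was represented by its brightest probe set on average (11576 genes). Symbols came from the platform annotation (20832 probe sets with 1 symbol, 436 with several), updated through RefSeq gene identifiers. One linear model of 4 diet means was fitted with limma 3.58.1 (R 4.3.3), with two-sided moderated tests, 6 comparisons and Benjamini-Hochberg adjustment over all genes of each comparison. The number of arrays limits the precision. Intervals are 95% intervals without adjustment.

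The model fit was tested on simulated data, with independent noise for each gene on the normalized log2 scale. Such data cannot test the normalization, array brightness or shared cell makeup. The members and the gene lists were chosen with earlier results of these data known. All members were named. From each complement list the called genes (at most 6) and at most 2 others of highest mean were named, from each context list at most 2 called genes, and for each member the 3 most correlated genes. Promoters were to be shown for members called with 2 or more lignans. Other normalizations, offsets, filters, probe set rules, variance models, covariates, array subsets and a replicate term were run as alternatives.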

Additional observations from a re-analysis of the deposited data

Results flagged for a closer look

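In 52 groups of 5 rats (13 probe sets in 4 diets), 4 had a highest or lowest rat whose gap to the next was more than 0.71 of the whole range, a size that chance gives in about 1 of 20 groups. C5 was lowest in episesamin replicate 1 (991.82, against 1263.9 to 1369.7 in the other 4 rats). On the probe sets shared by Cfb and C2, sesamolin replicate 4 was highest on one (891.99, against 674.14 to 722.29), episesamin replicate 1 was lowest on another (4775.1, against 5206 to 5377.6) and sesamin replicate 1 was lowest on the other (373.55, against 561.98 to 653.17). None of these 4 groups entered a called comparison.

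Effects of 2 lignans against the same lignan-free rats differed by a test of the difference itself in 3 cases. In this model the lignan-free mean cancels, so these are the same tests as the comparisons between lignans given above. The C1s effect of episesamin minus that of sesamin was -0.9608 on the log2 scale (adjusted p = 0.00203), and that of sesamolin minus that of sesamin was -0.8076 (adjusted p = 0.00981). The Cfi effect of sesamolin minus that of sesamin was -0.3315 (adjusted p = 0.039). That Cfi call ended in 7 of the 16 other settings, and both C1s calls ended without normalization.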

How the results depend on the processing

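Of 48 comparisons of a member, 9 were called, and 2 of these, C1s with episesamin and with sesamolin against the lignan-free diet, kept their call in all 16 other settings and with each of the 20 arrays left out. Of the 39 not called, 35 were called in no alternative, and no member comparison that was called under any setting turned its sign. The counts of called members that follow are given as the main value and then the alternatives. With episesamin against the lignan-free diet, 3 were called, and 1 without normalization, with only those diets fitted, without the 6 arrays of mean intensity below 200 or without the 4 arrays numbered 1, with a range from 1 to 3 over left-out arrays (1 without lignan-free replicate 1 or episesamin replicate 4). With sesamolin 3 were called, and 1 under each of the same 4 alternatives. Against sesamin, episesamin gave 1, then 0 without normalization and without the 6 dimmer arrays and 3 with trended and robust variances. Sesamolin against sesamin gave 2, then 1 with median scaling, without a filter, with every probe set on its own or without the 4 arrays numbered 1, and 0 without normalization, with only those diets fitted or without the 6 dimmer arrays, with a range from 1 to 3 over left-out arrays. The F test gave 3, then 1 with median scaling, without normalization, without the 6 dimmer arrays or without the 4 arrays numbered 1. Sesamin against the lignan-free diet and sesamolin against episesamin each gave 0 throughout.

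Of the other complement genes, 7 were called with episesamin, then 3 without normalization, 4 with brightness as a covariate, 1 without the 6 dimmer arrays and 3 without the 4 arrays numbered 1, with a range from 2 to 8 over left-out arrays. With sesamolin 11 were called, then 7 with median scaling, 5 without normalization, 6 with only those diets fitted, 5 without the 6 dimmer arrays and 5 without the 4 arrays numbered 1, with a range from 7 to 11. Kdr, an endothelial marker called lower with episesamin, turned to 0.1126 when probe sets of a gene were averaged (adjusted p = 0.74). Its call with sesamolin ended in that setting too (adjusted p = 0.964). Over all genes, sesamin, episesamin and sesamolin called 50, 593 and 722, against 18, 262 and 264 without normalization, 31, 352 and 372 with only those diets fitted and 30, 356 and 373 without the 4 arrays numbered 1. Without the 6 dimmer arrays episesamin and sesamolin called 290 and 387. Fewer arrays enter the last 3 of these alternatives. The cause of the other changes was not tested. Correlations between the deviations of same-numbered rats ran from -0.06 to 0.25, and in no comparison were all 5 pairs above 0.1, so the numbers were not taken as pairs. A fit with a replicate block called 51, 697 and 858 genes and the same numbers of members against the lignan-free diet (0, 3 and 3). With that block C8a was called between sesamolin and sesamin (adjusted p = 0.048), and the calls of C8b with episesamin (0.0511) and sesamolin (0.0504) and of Cd46 with sesamolin (0.0516) ended.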
